A study of Rattus norvegicus with 10 samples.

Results

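The expression of 10 genes of peptide secretion was examined in 5 regions of the rat brain. They comprised the peptide precursors Hcrt, Avp, Trh and Adcyap1, the granins and granin-like proteins Scg2, Chgb and Vgf, the granule-associated protein Resp18, the prohormone convertase Pcsk2 and Nnat, which encodes the imprinted small membrane protein neuronatin. They were chosen by earlier results of these arrays, with the regional level and the cocaine ratio in the ventral tegmental area in view, so both are given as descriptions without a test. Of 4736 genes named alone by a probe set these are 10, and on the array 17 of 8740 non-control probe sets were annotated to 1 of these symbols alone, and all 17 are described. The 10 samples were total RNA of the amygdala (AMY), caudate putamen (CPU), nucleus accumbens (NA), prefrontal cortex (PFC) and ventral tegmental area (VTA), each with 1 array from cocaine-treated rats and 1 from saline-treated control rats. For strain, age, dose, route, timing and any pooling of animals the sources used here give nothing. AMY, CPU, NA and PFC are called forebrain regions below.

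Neuropeptides are made as precursors that enter dense-core secretory granules together with granins, acidic proteins that help granules to form. Convertases such as the product of Pcsk2 cut the precursors at pairs of basic residues as the granule matures, and calcium then triggers release. Hcrt, the precursor of orexin A and orexin B, is made by neurons of the lateral hypothalamus, whose axons reach dopamine neurons of the VTA. Avp encodes vasopressin, Trh thyrotropin-releasing hormone and Adcyap1 the peptide PACAP, all of them products of hypothalamic neurons among other cells.

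The unit is the dChip expression index, a model-based summary of the probes of a probe set on a linear scale. It compares arrays for 1 probe set and says nothing of the level of 1 gene against another. Array medians lay between 2208 and 2310, and the PFC cocaine array stood apart with 226 exact zeros and the lowest median correlation with the other arrays. No member had a zero on any array. Of the 17 member probe sets, 14 were in the upper 60% of all probe sets by mean index and entered the fits, with every gene represented. Before log2 was taken, an index of 1028, the 20th percentile, was set as a floor. The VTA carried the transcript of Th, tyrosine hydroxylase of dopamine synthesis, at 6363 with saline and 7544 with cocaine, against 2599 to 2884 in the forebrain. The dopamine transporter gene Slc6a3 set the VTA less clearly apart, at 3268 and 4552 against 2977 to 3756 on its most abundant probe set. Its second, of low mean and not tested (M80570_at), stood at 2316 in the VTA with saline, above the forebrain range of 1319 to 1751, and was listed at 0 with cocaine.

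Hcrt had the lowest cocaine ratio in the VTA among the members. Its index was 23627 in the VTA with saline and 6808 in the VTA with cocaine. In the forebrain it was 3478 and 2738 in the AMY, 2819 and 2886 in the CPU, 3079 and 2825 in the NA and 2862 and 3620 in the PFC, with saline first. Both VTA arrays thus lay above all 8 forebrain arrays, and the forebrain regions overlapped one another. The regional means fell in the order VTA 15218 ± 11893 (SD, n = 2), PFC 3241 ± 536, AMY 3108 ± 523, NA 2952 ± 180 and CPU 2853 ± 47.3 (each SD, n = 2). Against the mean of the 4 forebrain arrays of the same treatment, the VTA was 7.75-fold higher with saline and 2.27-fold higher with cocaine. The index stood at percentile 98.1 of all probe sets on the saline VTA array and 87.8 on the cocaine VTA array, and between 59.6 and 70.7 in the forebrain. No detection call was used, so whether the forebrain signal is Hcrt transcript was not tested.

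Within the VTA, Hcrt was 3.47-fold lower with cocaine, a log2 ratio of -1.80 between 1 array and 1 array. No replicate stands behind this ratio. In bulk tissue, fewer cells of a type, from the VTA or beside it, and less RNA per cell cannot be told apart. In the other regions the Hcrt log2 ratio was -0.35 in the AMY, 0.03 in the CPU, -0.12 in the NA and 0.34 in the PFC, so its sign was mixed.

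**Figure D1:**
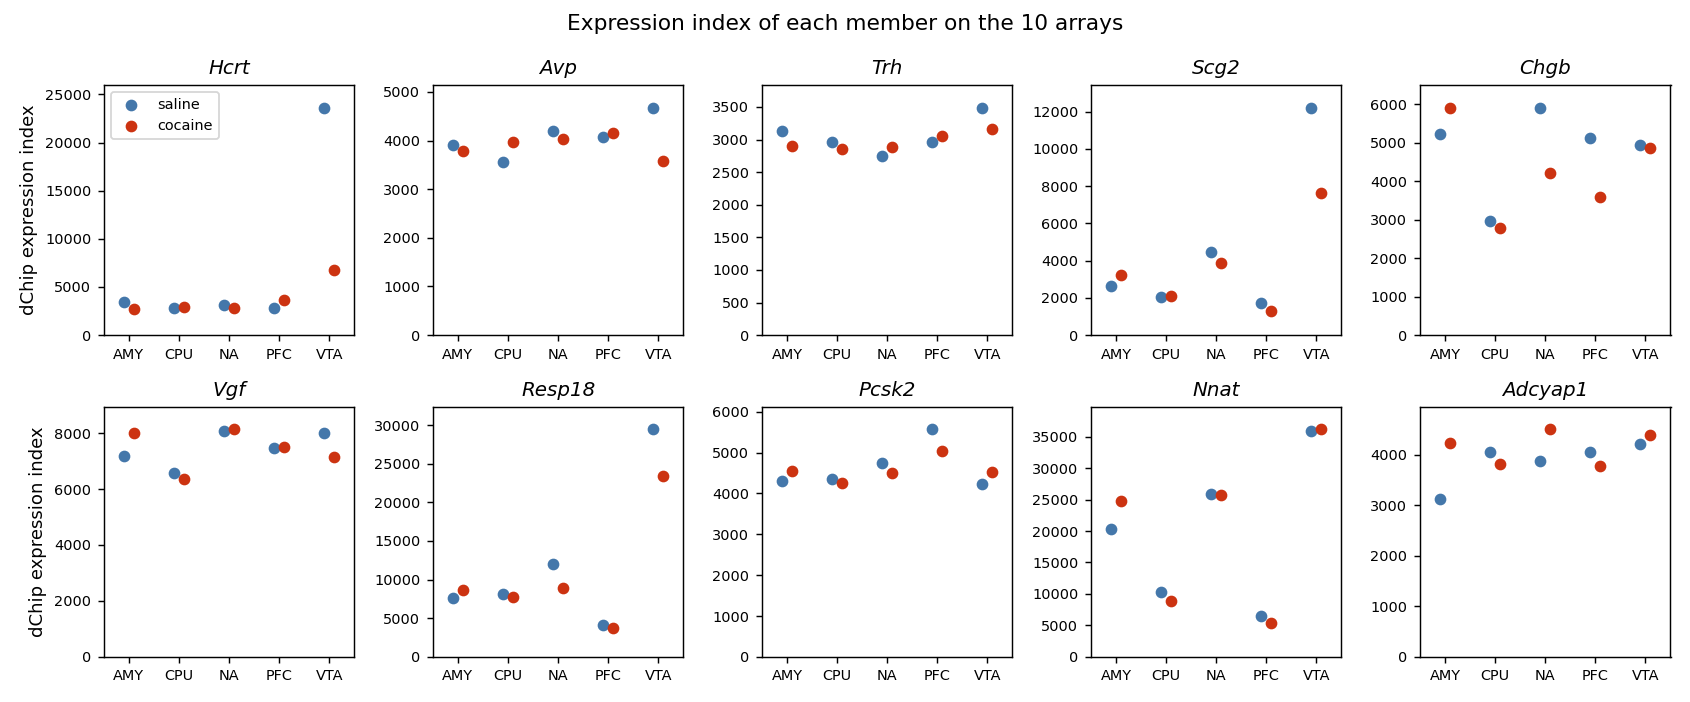
Expression index (vertical axis, linear and starting at 0) of the most abundant probe set of each of the 10 genes by region, with 1 point per array, blue for saline and red for cocaine. Hcrt stands at 23627 and 6808 in the VTA, and Scg2, Resp18 and Nnat are likewise highest in the VTA; Trh lies just above the forebrain, and the other 5 genes overlap it.

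Scg2, the precursor of secretogranin II and of the peptide secretoneurin, was also highest in the VTA, at 12208 with saline and 7641 with cocaine. The NA followed at 4481 and 3895, the AMY at 2632 and 3247, the CPU at 2038 and 2083 and the PFC at 1743 and 1306. No 2 neighbouring regions in this order overlapped. The VTA excess over the forebrain was 3.89-fold on the scale of geometric means. By treatment it was 4.80-fold with saline and 3.16-fold with cocaine. Within the VTA, Scg2 was 1.60-fold lower with cocaine, a log2 ratio of -0.68.

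Resp18, an endocrine-specific protein of the secretory pathway, was measured by 2 probe sets of the same source sequence. The more abundant one (L25633_g_at) stood at 29429 and 23452 in the VTA, 12042 and 8870 in the NA, 7610 and 8686 in the AMY, 8174 and 7709 in the CPU and 4112 and 3780 in the PFC, with saline first. The other (L25633_at) stood at 22548 and 16381 in the VTA and between 3023 and 7873 in the forebrain. Both placed the VTA above and the PFC below every other region, with the AMY and CPU overlapping. In the VTA their log2 ratios were -0.33 and -0.46, or 1.25-fold and 1.38-fold lower with cocaine. Since they come from 1 gene they are not independent readings.

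Nnat shared the regional order of Scg2 but not the cocaine ratio. Its index was 35860 with saline and 36142 with cocaine in the VTA, 25926 and 25663 in the NA, 20394 and 24703 in the AMY, 10373 and 8901 in the CPU and 6452 and 5310 in the PFC. No neighbouring regions overlapped, and the forebrain arrays alone spanned 4.88-fold. The VTA log2 ratio was 0.01, but -0.04 with arrays scaled to 1 median and -0.10 after quantile normalization. The VTA values lay at percentiles 99.5 and 99.4 of their arrays.

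**Figure D2:**
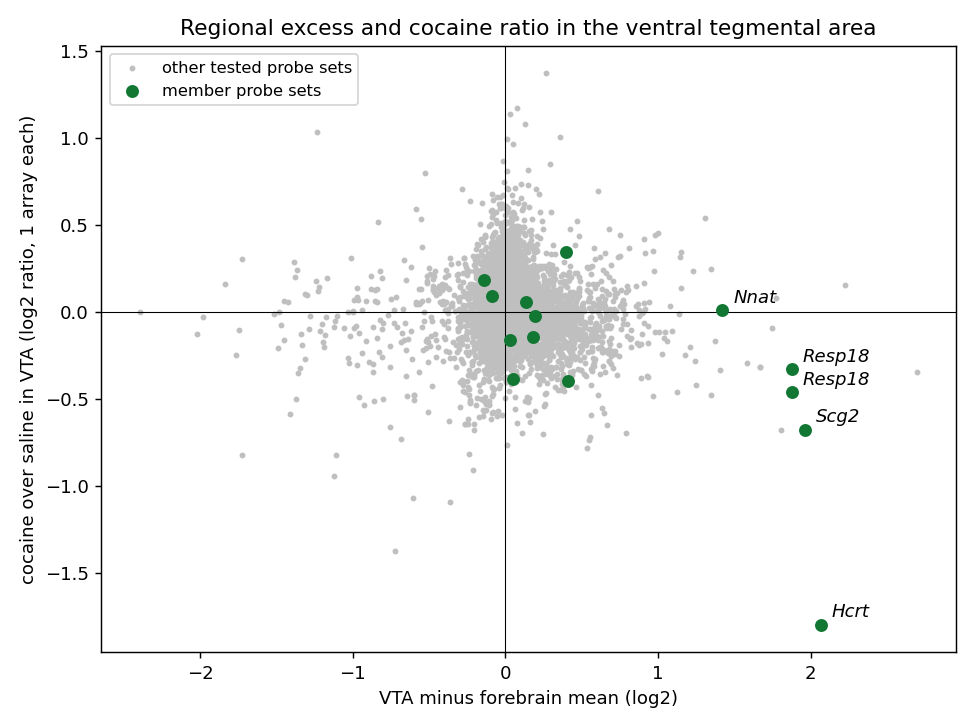
Each point is 1 tested probe set with a value on both VTA arrays, placed by its log2 difference between the VTA and the forebrain mean (horizontal) and its log2 ratio of cocaine over saline in the VTA (vertical, 1 array each). Hcrt lies alone at 2.07 and -1.80, Scg2 and both Resp18 probe sets lie to the right and below 0, and Nnat lies to the right at 0.01.

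The remaining granule genes had no such regional excess. Chgb, which encodes chromogranin B, stood at 4949 and 4862 in the VTA, 5221 and 5901 in the AMY, 5907 and 4203 in the NA, 5115 and 3583 in the PFC and 2972 and 2783 in the CPU. In the order of means, AMY, NA, VTA and PFC each overlapped the next, and only the CPU lay apart. Vgf, the precursor of several activity-related peptides, ranged only from 6361 to 8131 in the forebrain, with 7986 and 7150 in the VTA. Pcsk2 was highest in the PFC, at 5566 and 5047 on its more abundant probe set (M83746_at), against 4241 and 4516 in the VTA. Its other probe set (S40669_s_at) also had the highest mean in the PFC, at 2542 and 2288, and the VTA at 1850 and 2097. The VTA log2 ratios with cocaine were -0.03 for Chgb, -0.16 for Vgf and 0.09 and 0.18 for Pcsk2.

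Among the peptide precursors, Avp and Trh had smaller differences in the direction of Hcrt. The main Avp probe set (M25646_at) stood at 4678 in the VTA with saline and 3576 with cocaine, and between 3562 and 4201 in the forebrain, so that the saline array was above and the cocaine array within the forebrain range. A second Avp probe set (M64785_g_at), not tested because of its low mean, showed the same arrangement at 1959 and 1059 against 886 to 1280. The third (M64785_at) was below the floor on all 10 arrays, at 529 to 1015. Trh on M23643cds_s_at stood at 3488 and 3160 against 2741 to 3128, above the forebrain on both VTA arrays. On M36317_s_at it stood at 3748 and 2847 against 2060 to 2864, above it with saline only. The VTA log2 ratios were -0.39 for Avp and -0.14 and -0.40 for Trh.

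The 3 Adcyap1 probe sets disagreed. M63006_at gave 4211 and 4388 in the VTA against 3122 to 4505 in the forebrain, and X80290cds_s_at gave 3538 and 4489 against 2501 to 3973. The untested rc_AI228407_s_at gave 1672 and 1452 in the VTA against 214 to 628 in the forebrain, where all 8 arrays lay below the floor, so no fold is given. The VTA log2 ratio of cocaine over saline was 0.06 on the first and 0.34 on the second. Within the AMY the first was higher with cocaine by 0.44 and the second lower by 0.39 on the log2 scale, and in the PFC the signs were turned, at -0.10 and 0.44. The suffix s marks probe sets that may match more than 1 transcript.

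Counts over the members were read against all tested probe sets. Both VTA arrays lay above all 8 forebrain arrays for 6 of the 14 tested member probe sets, those of Hcrt, Scg2, Resp18 (2), Nnat and Trh (1), where 13.2% of 4894 probe sets with a value on every array did so. None of the 14 had both VTA arrays below the forebrain, where 4.78% did so. With cocaine in the VTA, 2 of 14, Hcrt and Scg2, were lower by at least 1.5-fold and 0 were higher, where 0.758% and 0.895% of 5142 probe sets were lower and higher. Besides Hcrt, 8 of 13 were below 0 in log2 ratio, where 42.4% of all tested probe sets were. The rule that chose the genes used these contrasts, so nothing further is read from the counts. The median VTA log2 ratio was -0.15 over the 14 and 0.03 over all tested probe sets.

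A lower value with cocaine was common among other transcripts with a high mean in the VTA. Of 31 other tested probe sets at least 2-fold above the forebrain mean there, 21 (67.7%) had a log2 ratio below 0. The median over the 31 was -0.15. The lowest of these was -0.68, for Cartpt, the ratio that Scg2 also had, so the Hcrt ratio of -1.80 lay beyond all of them.

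The upstream sequences of 4 genes are shown because Hcrt, Scg2 and Resp18 share the high VTA index and the lower value with cocaine, while Vgf is a granin-like gene with no VTA excess and a VTA log2 ratio of -0.16. Each is the 250 bases before the annotated transcript start in RefSeq, 5′ to 3′ on the gene's strand, and capitals mark the cAMP response element TGACGTCA or the TATA box TATAAA, searched on both strands.
Hcrt (GRCr8, chr10:86191525-86191774, minus strand): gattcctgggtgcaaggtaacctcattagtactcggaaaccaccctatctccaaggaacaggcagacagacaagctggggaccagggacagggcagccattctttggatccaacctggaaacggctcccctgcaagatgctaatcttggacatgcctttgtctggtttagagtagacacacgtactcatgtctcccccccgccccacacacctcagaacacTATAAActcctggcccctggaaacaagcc
Scg2 (GRCr8, chr9:88256867-88257116, minus strand): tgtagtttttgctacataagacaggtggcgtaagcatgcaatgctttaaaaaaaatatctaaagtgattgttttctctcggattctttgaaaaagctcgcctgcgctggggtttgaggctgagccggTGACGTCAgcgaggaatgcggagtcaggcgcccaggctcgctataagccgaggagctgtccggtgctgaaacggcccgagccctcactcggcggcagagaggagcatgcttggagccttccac
Resp18 (GRCr8, chr9:84220187-84220436, minus strand): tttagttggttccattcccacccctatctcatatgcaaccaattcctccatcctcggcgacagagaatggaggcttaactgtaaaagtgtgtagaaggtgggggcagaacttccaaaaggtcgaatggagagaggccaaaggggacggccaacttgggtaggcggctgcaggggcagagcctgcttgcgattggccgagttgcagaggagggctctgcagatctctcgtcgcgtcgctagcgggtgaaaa
Vgf (GRCr8, chr12:25277021-25277270, minus strand): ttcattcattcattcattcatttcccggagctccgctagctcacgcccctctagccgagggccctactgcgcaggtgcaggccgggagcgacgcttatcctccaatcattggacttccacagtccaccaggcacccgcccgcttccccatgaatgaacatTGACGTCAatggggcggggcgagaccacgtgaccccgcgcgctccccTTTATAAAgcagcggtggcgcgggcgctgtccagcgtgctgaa
RefSeq promoters matched 9 of the 10 symbols, all but Nnat. TGACGTCA was present in 2 of the 9, Scg2 at 123 and Vgf at 90 bases before the start, and in 1.59% of 33469 promoters of the same length. TATAAA was present in Hcrt, Vgf and Adcyap1, and in 12.9% of all promoters. It began 29 bases before the start in Hcrt. In Adcyap1 it began 248 bases before the start, at the far end of the window. In Vgf copies on the opposite strands overlap. The Resp18 window held neither. Of the 2 genes with TGACGTCA, Scg2 had a VTA log2 ratio of -0.68 and Vgf of -0.16, each from 1 array against 1. Whether the motif bears on these ratios was not tested. A match is a run of letters and not a measured binding site.

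Whether the members moved with Hcrt was described first by the sign of the cocaine ratio in each region. In the VTA, where Hcrt was lower, 8 of the 13 other tested member probe sets were lower. In the NA, where Hcrt was slightly lower, 10 of 13 were lower, where 59.4% of all tested probe sets were. In the AMY Hcrt was lower but 9 of 13 were higher, with a median of 0.17. The other 4 shared the sign of Hcrt there, where 55% of all tested probe sets did, with a median of -0.04. Scg2, both Resp18 probe sets and Nnat, which were high with Hcrt in the VTA, had AMY ratios of 0.30, 0.19, 0.17 and 0.28. In the PFC Hcrt was higher and 5 of 13 shared its sign, where 51.9% of all tested probe sets did. In the CPU it was higher by 0.03 and 3 of 13 shared its sign, where 40.8% of all did. Scg2, Resp18 and Nnat therefore had the sign of Hcrt in some regions and the opposite sign in others.

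**Figure D3:**
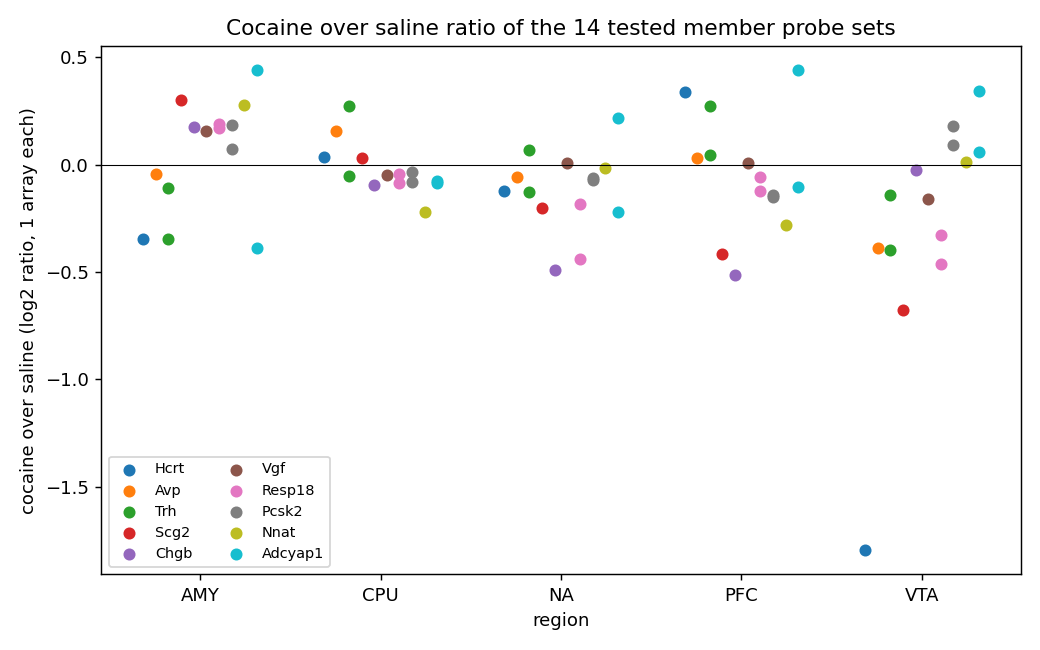
Log2 ratio of cocaine over saline (vertical axis) of the 14 tested member probe sets in each region, with 1 point per probe set, coloured by gene, and 1 array per treatment. In the VTA Hcrt lies at -1.80 and Scg2 at -0.68, and in the AMY 9 of the 13 other than Hcrt lie above 0.

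The Pearson correlation of log2 values with Hcrt is given as a description, without a p-value. Over the 10 arrays, r was 0.88 and 0.87 for the Trh probe sets, 0.78 for Scg2, 0.80 and 0.76 for Resp18, 0.53 for Avp (M25646_at), 0.50 and 0.21 for Adcyap1, 0.49 for Nnat, 0.23 for Vgf, 0.20 for Chgb and -0.32 and -0.52 for Pcsk2. These are the tested probe sets. Among the untested, r was 0.89 for Avp on M64785_g_at and 0.96 for Adcyap1 on rc_AI228407_s_at, with 5 and 8 of the 10 values below the floor. An r of at least 0.7 was reached by 5 of the 13 tested, where 5.19% of the other probe sets reached it. An r of at least 0.9 was reached by 0 of the 13, where 0.123% did. The genes were chosen with their VTA values in view, so nothing further is read from these counts. The VTA arrays stand apart from the rest, and arrays of a region share their dissection label. Over the 8 forebrain arrays alone, r turned to -0.365 for Scg2 and -0.389 and -0.414 for Resp18, and 6 of 13 were below 0, where 44.8% of all probe sets were. Trh on M36317_s_at (0.89) and Adcyap1 on X80290cds_s_at (0.91) were above 0.85 there, 2 of 13, where 13% of all probe sets reached it. Without the VTA saline array, r for Avp on M25646_at turned to -0.40 and r for Scg2 was 0.56. The forebrain range of Hcrt was only 2738 to 3620, highest on the PFC cocaine and AMY saline arrays.

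The 5 probe sets of other genes most like Hcrt over the 10 arrays were those of P4hb, a protein disulfide isomerase of the endoplasmic reticulum (r = 0.94), Gpx3, the secreted glutathione peroxidase (2 probe sets, r = 0.93 and 0.92), Rab33b (0.93) and the vesicle protein Vat1 (0.92). Gpx3 on rc_AI172411_at stood at 15458 and 12423 in the VTA, and P4hb at 4585 and 4164. Over the 8 forebrain arrays their r with Hcrt was 0.14, 0.53, 0.42, 0.57 and 0.19 for P4hb, the Gpx3 probe sets, Rab33b and Vat1.

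The question left to a test was whether cocaine changed the members in the 4 forebrain regions, whose cocaine ratios played no part in choosing them. In limma with region as a block, 0 of 14 passed, with adjusted p = 0.9999 for each, and 0 had an unadjusted p under 0.05. Over all 5242 probe sets 0 passed in either direction, 0% higher and 0% lower, and 84, or 1.6%, had an unadjusted p under 0.05. The change was -0.02 ± 0.12 (SE, 4 pairs) for Hcrt, -0.07 ± 0.13 for Scg2, -0.11 ± 0.11 and -0.03 ± 0.08 for Resp18 and -0.06 ± 0.11 for Nnat, on the log2 scale. Chgb had the change of largest size among the members, -0.23 ± 0.13, lower in 3 of 4 regions. With 3 residual degrees of freedom, these values do not show that the members kept their level.

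Other genes of peptide secretion were taken from 5 fixed lists. The lists were written with earlier results of these data known, so counts over them are not an independent test. Their genes were fitted for the VTA against the forebrain mean in limma, where 7.82% of 5232 probe sets passed as higher and 3.23% as lower. Of 11 tested genes of granules and prohormone processing, 1 rose in the VTA and 0 fell. This was Cadps, which primes dense-core granules for release, at 6578 and 6594 against 2403 to 5934 (log2 difference 0.72 ± 0.12 SE, adjusted p = 0.0071). Scg3, a granin of the granule membrane, stood at 9146 and 7049 against 6795 to 10255, with a VTA cocaine ratio of -0.38. Pam, the enzyme that amidates peptides, stood at 10690 and 9240 against 7695 to 8818 on its most abundant probe set (adjusted p = 0.0568). Another 2 Pam probe sets had log2 differences of 0.67 and 0.62 (adjusted p = 0.0311 and 0.0281). Its untested probe sets of low mean showed no such excess. Among them, rc_AA799575_i_at stood at 1721 and 1744 against 1399 to 2088, and M63662_s_at at 1891 and 1562 against 1559 to 1920. M82845_s_at and rc_AA799575_r_at lay below the floor throughout. The median over the list was -0.02, against 0.02 over all probe sets.

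Of 21 tested precursors of other hypothalamic peptides, 1 was higher in the VTA and 3 were lower. Cartpt stood at 10588 and 6627 in the VTA, with a log2 difference of 1.81 (adjusted p = 0.000242) and a cocaine ratio of -0.68. In the NA it stood at 6999 and 7116, both above the VTA cocaine array. It lay between 1446 and 2013 in the other forebrain regions. Cck (-1.24), Penk (-1.13) and Npy (-0.92) were lower in the VTA than the forebrain mean (adjusted p = 0.00813, 0.000131 and 0.00406). Of these, only Npy lay below every forebrain array, at 3256 and 2244 against 4431 to 5834. Penk, at 5894 and 5545 in the VTA, lay above the PFC at 2462 and 2457. The VTA cocaine value of Cck lay above both CPU arrays, which stood at 5707 and 7238. Sst had the lowest VTA cocaine ratio of the list, at 9413 with saline and 3638 with cocaine, a log2 ratio of -1.37, and -0.63 on its second probe set. Cck had the highest, at 4161 and 8504. The list as a whole had a median VTA cocaine ratio of -0.01.

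None of 6 tested receptors of the member peptides passed in limma for the VTA against the forebrain, and 0 had an unadjusted p under 0.05. Hcrtr1, the receptor with preference for orexin A, stood at 2392 and 2275 in the VTA against 2132 to 2548, Trhr at 3806 and 5738 against 3516 to 7936 and Avpr2 at 2871 and 3180 against 2537 to 3174. Of 5 imprinted genes, Ndn, which encodes necdin, was higher, at 4736 and 3756 against 1018 to 2527 (log2 difference 1.41, adjusted p = 0.0014), with a VTA cocaine ratio of -0.33. H19 had the largest cocaine ratio of that list, 0.67, but 0.09 on its second probe set. Of 6 tested transcription factors of hypothalamic neurons, 0 passed in limma and 0 had an unadjusted p under 0.05, among them Arnt2 and Lhx1 with log2 differences of 0.03 and 0.06. With cocaine in the VTA, 0 of these factors were lower and 5 were higher, with a median log2 ratio of 0.23, where 42.4% of all tested probe sets were lower. In all, 6 of 49 tested list genes passed, 3 higher and 3 lower. The number of all probe sets passing was 578 and depended on single arrays, with 118 without the VTA cocaine array, 172 without the VTA saline array, 296 and 319 without the CPU cocaine or saline array, 349 and 323 without the NA cocaine or saline array and 948 without the AMY cocaine array.

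Markers of hypothalamic neurons and of the labelled tissue were read beside the Hcrt ratio. Of 8 tested hypothalamic markers, Hcrt, Avp and Trh included, 1 passed as higher in the VTA, Hcrt itself, a member for which no test is read. Summed indices compare arrays only, and probe sets of high index weigh most in them. The 8 measured markers that are not members summed to 14321 in the VTA with saline and 20032 with cocaine, against 19122 to 22703 in the forebrain. That sum holds zeros, since Pmch was listed at 0 on both VTA arrays and Oxt on the saline one. Over the other 6 it was 14321 and 14945 against 13129 to 16268. Of these, Pomc stood at 2830 and 2803 against 1908 to 2690, Ghrh at 2987 and 2969 against 2964 to 3782, Gnrh1 at 2878 and 2793 against 2581 to 3276 and Nkx2-1 at 3802 and 4467 against 3560 to 5458. Crh (484 and 370) and Nr5a1 (1340 and 1543) were below the tested range. None of these 6 differed between the VTA arrays as far as Hcrt did. Ghrh, Gnrh1 and Nkx2-1 lay within their forebrain range on both VTA arrays. Whether these markers follow the amount of hypothalamic tissue here was not tested.

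Tested dopamine neuron markers had the sign opposite to that of Hcrt. On their most abundant probe sets, all 9 tested had a higher index with cocaine in the VTA, by 0.13 to 0.54 on the log2 scale. Among all tested probe sets 42.4% were lower. Of 7 other, untested probe sets of these genes, 4 were higher with cocaine, 2 were lower and 1, of Slc6a3, was listed at 0. The sign was not particular to dopamine neurons. All 4 tested endothelial and blood markers were higher (median 0.27), as were 5 of 6 pituitary markers (median 0.25), with 1 lower. The summed index of 12 measured dopamine neuron markers was 37657 with saline and 47444 with cocaine, against 27226 to 37802 in the forebrain. It is likewise weighted to probe sets of high index. Of the 9 tested dopamine neuron markers, 2 (Th and Aldh1a1) were higher in the VTA than in the forebrain and 1 (Drd2) was lower in limma. Ddc, which completes dopamine synthesis, stood at 3809 and 5296, Gch1 at 2240 and 2896, Ret at 2314 and 2930, Nr4a2 at 3788 and 4177, Pitx3 at 6549 and 7737 and Drd2 at 1996 and 2190. Of 6 GABA neuron markers 4 were lower with cocaine, Sst at 9413 and 3638, Gad1 at 8527 and 4065, Slc32a1 at 5198 and 3249 and Calb1 at 8698 and 5811. The other 2 were higher, Gad2 at 3106 and 4906 and Pvalb at 2298 and 5166. The median log2 ratio of these GABA markers was -0.63. Of the 6 tested, Calb1 passed in limma as higher in the VTA than in the forebrain (log2 difference 0.65, adjusted p = 0.0404). The summed index of the 6 GABA markers was 37240 with saline and 26835 with cocaine, against 30826 to 48067 in the forebrain. The part of these markers in the Hcrt and Scg2 ratios was not tested.

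**Figure D4:**
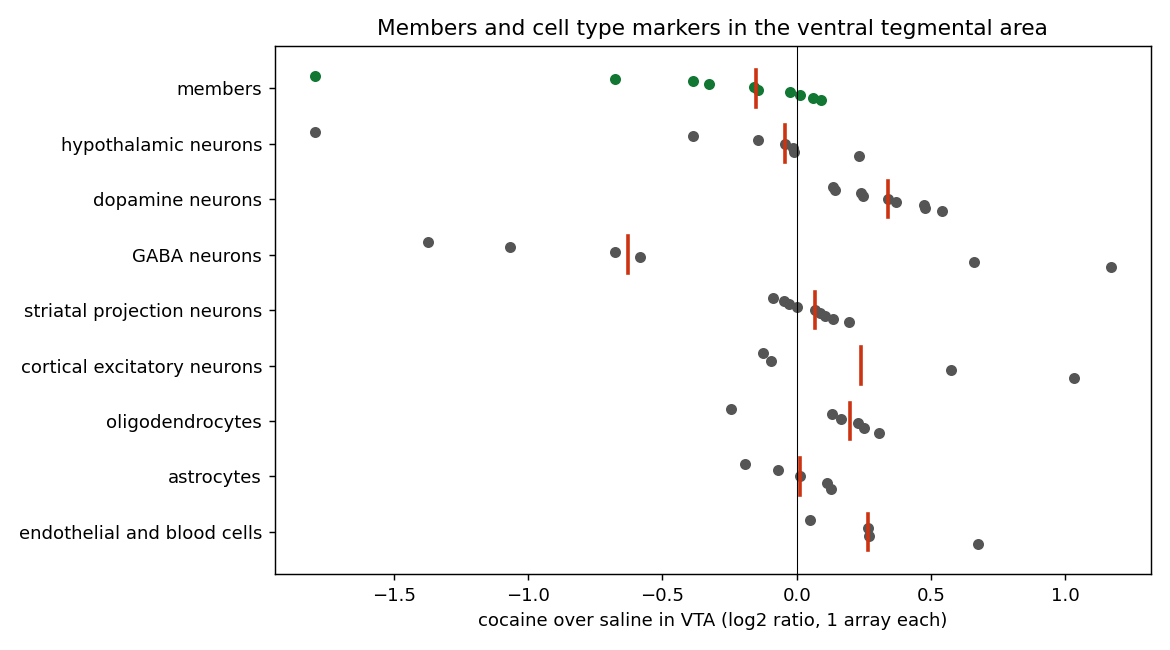
Log2 ratio of cocaine over saline in the VTA (horizontal axis, 1 array each), with 1 point per tested gene on its most abundant probe set and a red bar at the median of each list. On these probe sets all 9 dopamine neuron markers lie above 0, as do all 4 of endothelial and blood cells. The members have a median of -0.15, and Hcrt, which is shown under the members and under hypothalamic neurons, lies lowest at -1.80.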

How the data were processed

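Total RNA of 10 rat brain samples was hybridised to single-colour arrays of short oligonucleotides. The deposited values are linear intensities that the authors, per the labels, computed as dChip expression indices. For its version, model and scaling the sources used here give nothing. Sample titles gave the groups. Control probe sets were left out, and symbols came from the platform annotation. Exact zeros were treated as missing, values below the 20th percentile of values above 0 were raised to it, and log2 was taken. The upper 60% of 8740 probe sets by mean were fitted with limma 3.58.1 in R 4.3.3 (empirical Bayes with intensity trend, Benjamini-Hochberg adjustment over all probe sets, threshold 0.05). The forebrain cocaine fit had region as a block, and the VTA contrast had treatment as a term. Within the VTA 1 array stood against 1, with no test. List genes were represented by their probe set with the highest mean. All probe sets of the members were named. From each list, up to 4 genes past the threshold by size and 2 by VTA cocaine ratio were named, with the 5 probe sets of highest r with Hcrt. Members and lists were chosen with earlier results of these data known. Nothing in the labels ties samples to separate animals, and p-values therefore reflect only sample-to-sample spread, possibly technical. The number of arrays limits the precision. Fits were tested on simulated data. Alternatives changed the zeros, floor, filter, scaling, block, trend and single arrays.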

Additional observations from a re-analysis of the deposited data

How the results depend on the processing

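The forebrain cocaine fit called 0 probe sets under all 12 alternatives run, including each region pair left out, no replicate block and all 5 regions. For the VTA against the forebrain, 578 probe sets became 350 without a filter and 118 to 948 with 1 array left out; the split of 409 higher and 169 lower became 293 and 173 with arrays scaled to 1 median, and 229 and 191 with quantiles matched. The list genes passing ranged from 4 to 9. With zeros raised to the floor, the VTA cocaine ratio passed 1.5-fold in 177 probe sets, against 85; the split of 46 higher and 39 lower became 31 and 53 with 1 median, and 30 and 42 with quantiles matched. Over the forebrain arrays alone r with Hcrt turned to -0.365 for Scg2 and -0.389 and -0.414 for the Resp18 probe sets. The correlation without the VTA saline array, chosen after seeing the data, was 0.56 for Scg2. The VTA ratio of Hcrt stayed between -1.85 and -1.77 and that of Scg2 between -0.73 and -0.64. Of 168 member values under alternatives 0 reversed a 1.5-fold difference, and 4 changed sign, all under a scaling: the VTA ratio of Nnat (-0.04 and -0.10) and, with quantiles matched, the VTA excess of Avp (-0.0019) and Vgf (-0.06). The labels carry no replicate numbers, so the only pairing was by region.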

Other observations

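Several other hypothalamic peptide precursors carried exact zeros in the VTA. Of 25 measured precursors outside the 10 genes, 3 were listed at 0 on the saline VTA array, Pmch, Oxt and Gal, and 1, Pmch, on the cocaine VTA array, while 0 were listed at 0 on a forebrain array. That saline array held 40 zeros among 8740 probe sets. Pmch, the precursor of melanin-concentrating hormone, made like Hcrt in the lateral hypothalamus, lay between 1124 and 1259 on the 8 forebrain arrays. Oxt, the oxytocin precursor, lay between 4152 and 5210 on the forebrain arrays and at 5087 on the cocaine VTA array, and Gal, the galanin precursor, between 4219 and 5340 and at 5719. An exact 0 in these files can be a failed estimate, so no level is read from it. These 3 genes were singled out after their values were seen.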
